A study of Mus musculus with 6 samples.

Results

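The genes described here are 10 zinc transporters and metallothioneins, measured in cultured mouse neural stem cells from 2 regions of the embryonic brain. They comprise the ZIP importers Slc39a12, Slc39a8, Slc39a14, Slc39a6 and Slc39a10, the ZnT exporters Slc30a1 and Slc30a10, and the metallothioneins Mt1, Mt2 and Mt3. The members were selected by name, with earlier results of these arrays known, among them the difference of Slc39a12. All 10 were found among the 19938 genes that had a probe set with a single gene symbol. A gene was to be represented by the probe set with the highest mean over all arrays, but each member had only 1 such probe set, so this step chose nothing among them.

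The arrays came from wild-type C57BL/6 embryos at embryonic day 17.5, labelled female. Cells of the subventricular zone of the lateral ventricle (3 arrays, LV1 to LV3) and of the third ventricle (3 arrays, TV1 to TV3) were grown floating, without serum, in N2 and B27 with FGF and EGF at 20 ng/ml each, and both groups had this same treatment. The arrays are labelled biological replicates and no label links a replicate number with an animal. The p-values therefore reflect how much these cultures vary, which may in part be technical. Growth in these factors limits both groups as a model of the tissue, since the cells were measured after culture and not as they lie in the brain.

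Zinc is needed by many enzymes and transcription factors, and free zinc in the cytosol is kept very low. ZIP proteins (Slc39) bring zinc into the cytosol, ZnT proteins (Slc30) move it out of the cell or into vesicles, and metallothioneins are small cysteine-rich proteins that bind zinc and copper. When zinc rises, the sensor MTF-1 binds metal response elements in DNA and switches on Mt1, Mt2 and Slc30a1. In the brain, astrocytes and radial glia make much Mt1 and Mt2, and Mt3 is the metallothionein characteristic of neural tissue.

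Sequences upstream of Mt2, Mt3 and Slc39a12, and the sites of Mt1 and Slc30a1, are shown because metal response elements are the classical link between zinc and these genes. They are those of RefSeq (GRCm38.p6), read 5′ to 3′ on the gene's strand, with matches to the core of the metal response element in capitals. The core was searched as TGCACNC and TGCGCNC on both strands, and overlapping matches were each counted. The RefSeq promoter table sets the start of Mt1, Slc30a1 and Slc39a12 at 206, 84 and 82 bases inside the annotated gene, and only bases before the gene are shown for Slc39a12. For Mt1 and Slc30a1 the first match lies inside the gene's span, and 27 bases around it are shown.
Mt2, chr8:94172368-94172617, + strand: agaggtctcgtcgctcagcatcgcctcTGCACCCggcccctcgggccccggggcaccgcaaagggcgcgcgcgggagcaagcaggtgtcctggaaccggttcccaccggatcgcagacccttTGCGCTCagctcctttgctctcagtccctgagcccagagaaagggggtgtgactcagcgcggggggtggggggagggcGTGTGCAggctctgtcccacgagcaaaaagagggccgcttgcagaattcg
Mt3, chr8:94152357-94152606, + strand: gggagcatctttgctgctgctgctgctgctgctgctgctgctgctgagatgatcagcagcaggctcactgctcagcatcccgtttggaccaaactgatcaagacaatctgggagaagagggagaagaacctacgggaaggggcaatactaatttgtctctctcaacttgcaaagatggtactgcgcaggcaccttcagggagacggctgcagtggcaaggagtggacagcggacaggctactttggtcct
Slc39a12, chr2:14388148-14388315, + strand: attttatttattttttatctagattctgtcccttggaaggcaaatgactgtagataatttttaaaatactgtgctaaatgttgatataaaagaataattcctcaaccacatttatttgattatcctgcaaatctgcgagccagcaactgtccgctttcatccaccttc
Mt1 match, chr8:94179056-94179082, + strand: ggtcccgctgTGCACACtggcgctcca
Slc30a1 match, chr1:191906728-191906754, + strand: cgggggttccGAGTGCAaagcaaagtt

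The search window ran from 250 bases before to 50 bases after the start in that table, 300 bases in all, and 8 of the 10 members had a window (Slc39a6 and Slc39a14 had no entry). Mt2 held 4 matches, of which 3 lie in the stretch shown. Mt1 held 3, at positions -23 to -17 (the site shown), 3 to 9 and 21 to 27 from that start. Slc30a1 held 2, both on the opposite strand, and Mt3 held 1, after its start. Slc30a10, the manganese exporter, held 3, of which the first pair overlap on opposite strands and so share bases. Slc39a12 held 0. Slc39a10 held 0 in each of its 2 windows, one at the annotated start of the gene and one 72158 bases inside it. Slc39a8 held 0 in one of its windows and 1 in the other. These windows start 8397 and 8775 bases inside the annotated gene, so its annotated start was not searched. Of all 32851 windows in the RefSeq table, 25.7% held at least 1 match, 7.11% at least 2, 1.97% at least 3 and 0.517% at least 4. Such matches are letters in a window and show neither binding nor its absence.

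**Figure D1:**
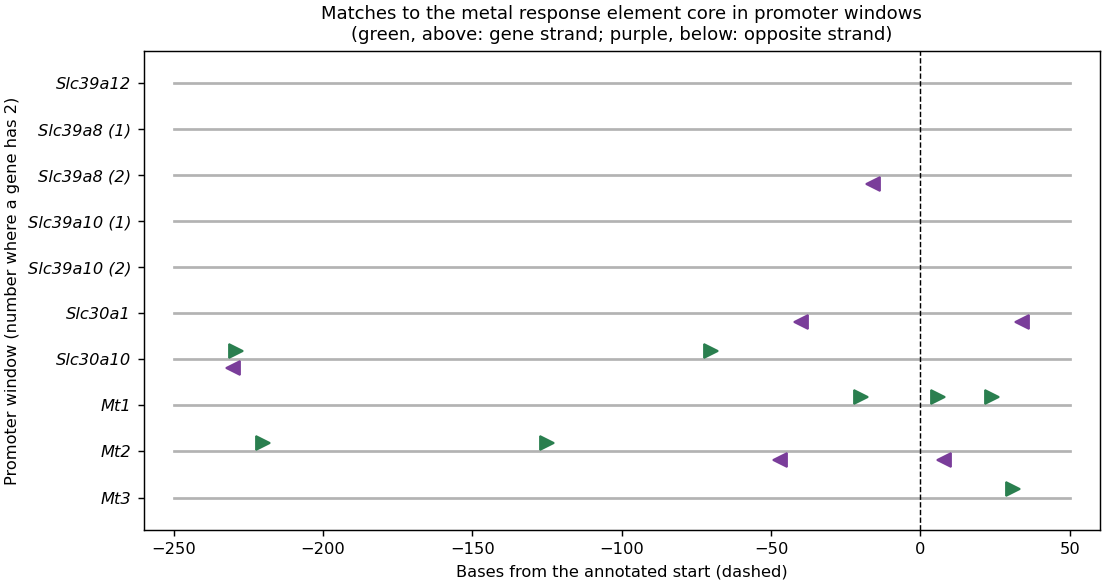
Matches to the metal response element core by distance in bases from the start in the RefSeq promoter table (horizontal axis), with 1 line per promoter window of a member, green markers above the line for the gene's strand and purple markers below it for the opposite strand. Mt2 carries 4 matches, Mt1 and Slc30a10 carry 3 each, and the line of Slc39a12 is empty.

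Levels are log2 RMA values, on which a step of 1 is a 2-fold change, and they can be compared between arrays for a gene but not between genes. Array medians ran from 5.43 to 5.47. As a gauge of background the 95th percentile of 1027 odorant receptor genes was used, which lay between 5.035 and 5.16. Of 10 neural stem cell markers, 9 lay above it in all 6 arrays, and their mean level ranged from 8.01 to 8.20 in lateral and from 7.98 to 8.20 in TV arrays. Of markers of other cells, 7 of 8 endothelial and mural, 5 of 8 meningeal, 4 of 6 choroid plexus and 4 of 6 microglial and blood genes lay below it in all 6 arrays. Of all 19938 genes 6860 did. Of neuron markers 6 of 10, of oligodendrocyte lineage markers 6 of 8, and of ependymal markers 4 of 6 lay above it in all 6, against 11020 of all genes. Ependymal markers were higher in the TV mean for 5 of 6, against 9052 of all genes, most for Rsph1 (by 0.425), and none passed with limma at an adjusted p of 0.05. LV2 stood apart within its group. Over all genes it correlated at 0.991 or 0.992 with the third ventricle arrays and at 0.980 and 0.982 with LV1 and LV3. Relative to the third ventricle mean, the median of 19 cell cycle genes was -2.01 in LV1 and -1.42 in LV3, but 0.04 in LV2. Results are therefore also given without LV2, and as the difference of the third ventricle mean from LV2 alone. LV2 was singled out by its values and is the lateral array nearest to the third ventricle, so leaving it out favours a call. Without it 1644 genes passed, against 46 over all arrays.

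Of the 10 members, Slc39a12 alone passed an adjusted p of 0.05 between the regions, in the fit of all 6 arrays, and it was higher in the third ventricle cultures. The other 9 did not pass, and their differences ran from -0.54 for Mt2 to 0.11 for Mt3. Differences here are those of the third ventricle mean from the lateral mean, so a negative value is a lower level in the third ventricle. The fit was made with limma over all 19938 genes, of which 46, or 0.231%, passed. At an unadjusted p below 0.05 it was again 1 of the 10, against 12.6% of all genes. The median difference of the members, the third ventricle minus the lateral, was -0.05, against -0.02 over all genes.

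**Figure D2:**
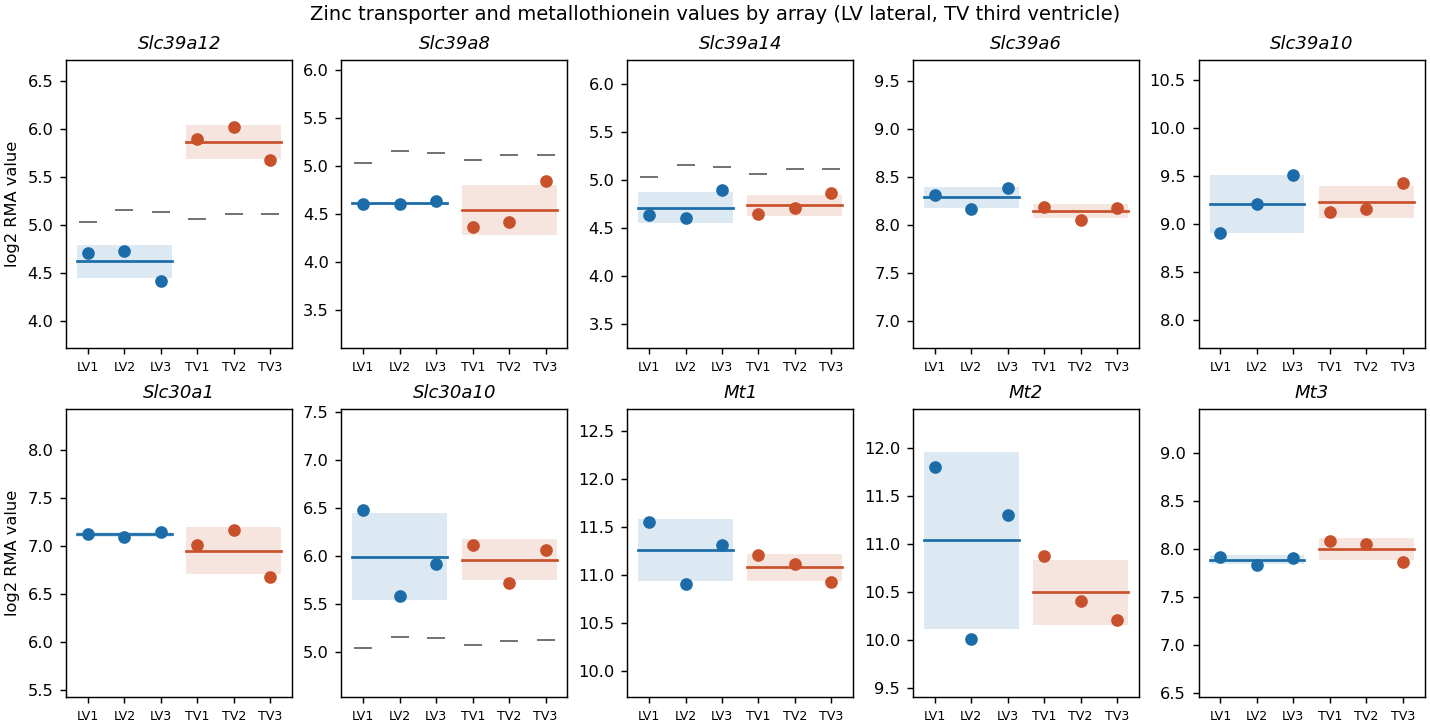
Log2 RMA values (vertical axes, all spanning the same number of log2 units) of the 10 members in each array, with lateral ventricle arrays in blue and TV arrays in orange. Lines are group means, bands are 1 SD to each side (n = 3), and grey dashes mark the background gauge where it falls in the panel. Slc39a12 is the panel whose groups do not overlap, and Mt2 has the widest band, in the lateral group.

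Slc39a12 encodes ZIP12, a zinc importer of the plasma membrane that is expressed mainly in the brain. Its log2 value was 4.71, 4.73 and 4.42 in LV1, LV2 and LV3 and 5.90, 6.02 and 5.68 in TV1, TV2 and TV3. The groups did not overlap, with all 3 TV arrays above the background gauge and all 3 LV arrays below it. Means were 4.62 ± 0.17 and 5.86 ± 0.17 (SD, n = 3), a difference of 1.24 (SE 0.13, 95% interval 0.95 to 1.54, limma adjusted p = 0.01565). Because the lateral level is below the gauge, the fold is given as a bound. The median of the odorant receptor genes was lower, 3.41 to 3.51 in the LV arrays, so the lateral values may still hold signal. Set against the gauge in the LV arrays, the TV level was at least 1.69-fold that of the LV cultures, a bound from means that carries no interval. In RNA of whole cultures, fewer cells that express a gene cannot be told apart from less of its RNA in each cell.

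The mean levels of the neuron and oligodendrocyte lineage markers also separated the groups, while most single markers of these lists overlapped. The mean level of the 8 oligodendrocyte lineage markers ranged from 6.40 to 6.78 in the LV arrays and from 5.88 to 6.02 in the TV arrays, without overlap. Of these markers 7 of 8 had a negative difference, against 10886 of all 19938 genes, and Olig1 a positive one (0.17). In 3 of the 8 the groups did not overlap, against 17% of all genes. Pdgfra, the growth factor receptor of oligodendrocyte precursors, passed as lower in the third ventricle, at 8.78, 8.25 and 8.53 in LV1 to LV3 and 6.93, 6.58 and 6.69 in TV1 to TV3 (difference -1.79, limma adjusted p = 0.00708). The mean level of the 10 neuron markers ranged from 6.36 to 6.60 and from 6.09 to 6.19, again without overlap. Of these 8 of 10 were negative, Map2 (0.24) and Nefl (0.10) were positive, and in 4 of 10 the groups did not overlap. None passed with limma (5 at an unadjusted p below 0.05). Among the neuron markers Dcx, of immature neurons, differed by -1.63 (limma adjusted p = 0.136), while Stmn2 and Syt1 lay below the gauge in all 6 arrays. The part of these cells in the difference of Slc39a12 was not tested.

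The lower level of Slc39a12 in the lateral cultures was shared by LV2, which for cell cycle genes lay with the third ventricle. The third ventricle mean exceeded LV2 alone by 1.13, and without LV2 the difference was 1.30 (limma adjusted p = 0.00117). The call did not hold without any 1 of the third ventricle arrays. Without TV1, TV2 and TV3 the difference was 1.23, 1.17 and 1.34, with limma adjusted p of 0.1135, 0.1305 and 0.0798. In those 3 fits 7, 4 and 4 genes passed of all 19938.

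By root mean square distance over the 6 arrays, after each gene was centred on its own mean, the genes nearest to Slc39a12 were Peg3 (0.09), Skap2 (0.15), Lrrc42 (0.15) and Cbln1 (0.17). Peg3, an imprinted gene for a zinc finger protein, stood at 8.71, 8.99 and 8.53 in LV1 to LV3 and at 9.96, 10.04 and 9.70 in TV1 to TV3. Its groups did not overlap. Its difference was 1.16 (limma adjusted p = 0.0316), and those of the other 3 were 1.25, 1.07 and 1.44, which also passed. The distance uses the same arrays as the comparison, so that these genes passed adds nothing to it. The lateral values of Slc39a12 that enter the distance are below the gauge.

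The other importers showed no such difference. Slc39a10, which encodes ZIP10 of the plasma membrane, lay at 8.90, 9.20 and 9.50 in LV1 to LV3 and at 9.12, 9.15 and 9.42 in TV1 to TV3. The third ventricle values lay inside the lateral range, and the difference was 0.03 (95% interval -0.35 to 0.40, limma adjusted p = 0.966). Slc39a6 encodes ZIP6, the close relative that pairs with ZIP10. It lay at 8.31, 8.17 and 8.38 in the lateral and at 8.19, 8.06 and 8.18 in the third ventricle arrays, a difference of -0.15 (95% interval -0.37 to 0.08, limma adjusted p = 0.590). Its groups overlapped through LV2, the lowest lateral array.

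Slc39a8 and Slc39a14 encode ZIP8 and ZIP14, which carry manganese and iron as well as zinc. Neither exceeded the background gauge in any of the 6 arrays. Slc39a8 read between 4.37 and 4.84 and Slc39a14 between 4.60 and 4.90, and levels at background cannot be ordered. Their differences were -0.07 (95% interval -0.38 to 0.24) and 0.02 (-0.24 to 0.29), and neither passed (limma adjusted p = 0.868 and 0.954). The genes nearest to Slc39a8 by the same distance were Slfn3 (0.02), Arntl2 (0.04), Stk26 (0.04) and Psors1c2 (0.04), with differences of -0.09 to -0.03, and none of the 4 passed. These 4 genes were also below the gauge in every array, apart from Arntl2 in TV3, so that this likeness is one of readings at background.

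Among the exporters, Slc30a1 encodes ZnT1, which moves zinc out across the plasma membrane. It was 7.12, 7.10 and 7.15 in the lateral arrays, a range of 0.06, and 7.01, 7.17 and 6.68 in the third ventricle arrays, a range of 0.49. The groups overlapped through TV2, which was the highest of the 6. The difference was -0.17 (95% interval -0.47 to 0.13, limma adjusted p = 0.644), and without TV3 it was -0.03. Slc30a10, known as an exporter of manganese, was 6.48, 5.58 and 5.92 in the lateral and 6.11, 5.71 and 6.06 in the third ventricle arrays. Its lateral values span all those of the third ventricle, with LV1 highest and LV2 lowest. The difference was -0.03 (95% interval -0.54 to 0.48, limma adjusted p = 0.969), and from LV2 alone it was 0.38.

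Metallothioneins differed in how far the lateral arrays lay apart. Mt2 was 11.80 in LV1, 11.30 in LV3 and 10.01 in LV2, and 10.87, 10.41 and 10.21 in TV1, TV2 and TV3. LV1 and LV3 thus lay above every TV array and LV2 below every one. The lateral range of 1.79 was matched or exceeded by 0.767% of all genes, and the range in the third ventricle arrays was 0.66. Means were 11.04 ± 0.92 and 10.50 ± 0.34 (SD, n = 3), and the difference of -0.54 did not pass (95% interval -1.48 to 0.40, limma adjusted p = 0.636).

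Without LV2, Mt2 passed as lower in the third ventricle cultures, by -1.05 (SE 0.21, limma adjusted p = 0.0207), or 2.08-fold. In that fit 8.25% of all genes passed, and LV2 does not share the difference: from LV2 alone the third ventricle mean was higher by 0.49. Of the members, 2 passed in it, Slc39a12 and Mt2. The difference of Mt2 is therefore one of LV1 and LV3 from the third ventricle and not of all lateral arrays.

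Mt1, which responds to metals together with Mt2, had its 6 arrays in the same order, from LV1 down to LV2, with smaller steps. It was 11.55, 10.91 and 11.32 in LV1, LV2 and LV3 and 11.21, 11.12 and 10.93 in TV1, TV2 and TV3. LV1 and LV3 were again the highest and LV2 the lowest, but LV2 and TV3 differed by little. The difference was -0.18 (95% interval -0.56 to 0.21, limma adjusted p = 0.718), and without LV2 it was -0.35 (limma adjusted p = 0.145). Mt1 and Mt2 are close relatives in sequence, and whether probes of one bind RNA of the other was not tested.

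The genes nearest to Mt1 by distance were Tenm2 (0.03), Atp6v0e (0.04), Cdk7 (0.05) and Tmem33 (0.05). Tenm2, a teneurin of the neural cell surface, was 6.21, 5.64 and 6.07 in LV1 to LV3 and 5.93, 5.88 and 5.63 in TV1 to TV3. None of the 4 passed between the regions, with differences of -0.25 to -0.14. Of the 19938 genes, 723 had a lateral range above 1 and 18 a range above 1 over the TV arrays. Wide ranges were thus more frequent in the lateral group, and those of Mt1 (0.64) and of Mt2 (1.79) lie on either side of this mark.

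Mt3 did not follow this order. It was 7.92, 7.83 and 7.91 in LV1 to LV3 and 8.08, 8.05 and 7.87 in TV1 to TV3. TV1 and TV2 lay above all lateral arrays and TV3 between them, and the lateral range was only 0.08. The difference was 0.11 (95% interval -0.11 to 0.34, limma adjusted p = 0.681), and 0.09 without LV2. Mt4, the metallothionein of squamous epithelia, did not exceed the gauge in any array. Mtf1, which encodes the zinc sensor, ranged from 7.14 to 7.29 in lateral and from 7.08 to 7.30 in TV arrays, with a difference of -0.0014 (95% interval -0.23 to 0.23, limma adjusted p = 0.997).

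**Figure D3:**
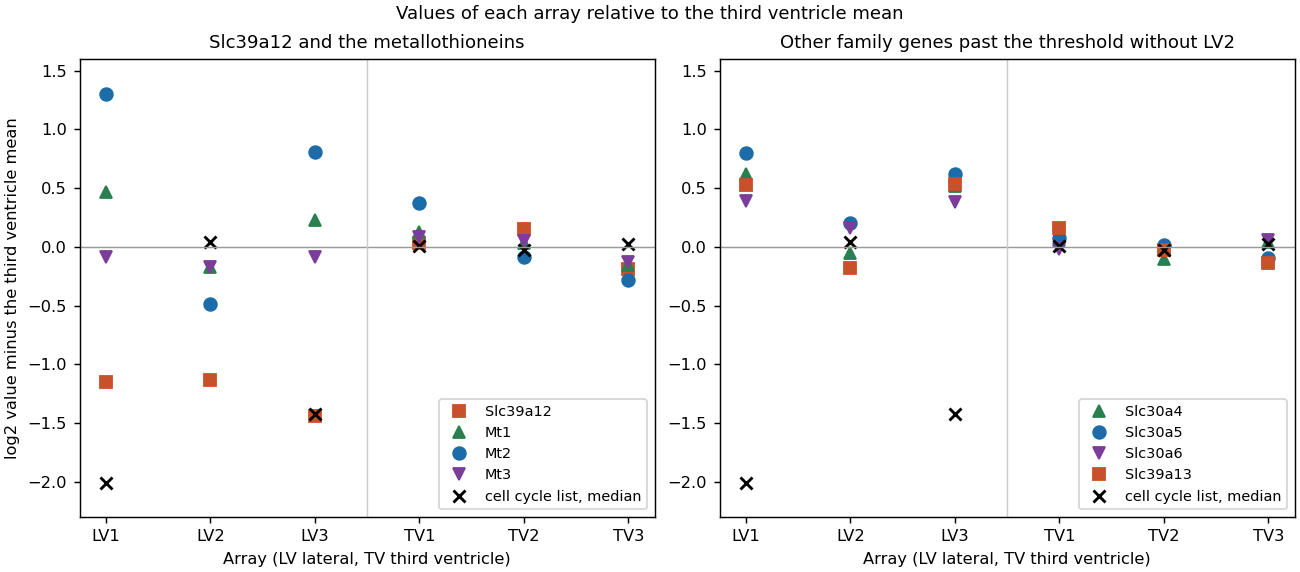
Log2 value of each array minus the mean of the 3 TV arrays (vertical axis), for Slc39a12 and the metallothioneins (left) and for 4 other zinc family genes (right), with the median of 19 cell cycle genes as crosses in both. Slc39a12 lies between -1.45 and -1.13 in all 3 lateral arrays, while Mt2 is at 1.30 in LV1, 0.80 in LV3 and -0.49 in LV2.

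The cultures in which Mt2 was high were those in which cell cycle genes were low. Relative to the third ventricle mean, Mt2 stood at 1.30, -0.49 and 0.80 in LV1, LV2 and LV3, and the cell cycle median at -2.01, 0.04 and -1.42. Of the 19 cell cycle genes 0 passed with limma over all arrays (16 at an unadjusted p below 0.05). Without LV2 all 19 passed as higher, as did 871 of all 19938 genes. LV2 was singled out in part by these same 19 genes, so their passing adds nothing. The part of the cell cycle in the metallothionein values was not tested. Slc39a12 lay below the gauge in LV1, LV2 and LV3 alike.

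Metallothioneins are also induced by oxidative stress and by glucocorticoids, and genes of both responses were read beside them. Of 11 targets of the oxidative stress factor Nrf2, 0 passed with limma over all arrays (3 at an unadjusted p below 0.05) and 8 had a negative difference. Without LV2, 5 of the 11 passed as lower and 1 as higher in the third ventricle cultures, where 3.88% of all genes passed as lower. Slc7a11, the cystine transporter subunit, was 9.09, 5.49 and 9.57 in LV1, LV2 and LV3 and 6.91, 6.39 and 6.00 in TV1, TV2 and TV3. It thus split the lateral arrays as Mt2 did, but was highest in LV3, where Mt2 was highest in LV1. Hmox1, heme oxygenase, was 8.82, 7.12 and 9.34 in the lateral arrays and 7.52 to 7.77 in those of the third ventricle. Gclc and Gstm1 also had LV1 and LV3 above and LV2 below every TV array, and the remaining targets did not. Srxn1 was 7.17, 6.50 and 7.97 in LV1 to LV3, all above its TV arrays (6.13 to 6.30). Prdx1, which passed as higher without LV2, was 9.62, 10.23 and 9.80, all below its TV arrays (10.25 to 10.50). Gsta4 was 8.95, 7.62 and 7.65 in LV1 to LV3, so LV3 lay with LV2.

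Of 8 glucocorticoid targets 0 passed with limma (0 also at an unadjusted p below 0.05), 6 had a negative difference, and their median difference was -0.06. Fkbp5 was 5.61, 6.85 and 5.88 in LV1 to LV3, lowest where Mt2 was highest, and 6.28 to 6.38 in the third ventricle arrays. Without LV2 Fkbp5 alone of the 8 passed, as higher (0.58, limma adjusted p = 0.0174), in a fit that 8.25% of all genes passed. Sgk1 had the largest difference of the list, -0.30, at 6.79, 6.28 and 6.27 in LV1 to LV3 and 6.09 to 6.23 in the TV arrays. Tsc22d3 was 6.03, 5.55 and 6.06 in LV1 to LV3 and 5.72 to 5.87 in the TV arrays, and so split the lateral arrays as Mt2 did. Of 12 astrocyte markers 0 passed with limma (2 at an unadjusted p below 0.05). Their mean level ranged from 7.32 to 8.09 in lateral and from 7.42 to 7.61 in TV arrays, and Gfap lay below the gauge in all 6. Relative to the third ventricle mean, their median was 0.29 in LV1, 0.06 in LV3 and -0.07 in LV2, the order of Mt2 among the lateral arrays. In TV1, TV2 and TV3 this median was 0.06, -0.03 and -0.07, so LV3 lay close to TV1 and LV2 close to TV3, unlike in Mt2. Apoe, the lipid carrier of astrocytes, was 11.11, 8.27 and 9.58 in LV1 to LV3 and 8.81, 8.13 and 7.96 in TV1 to TV3. Without LV2, 2 of the 12 passed, against 8.25% of all genes, and in opposite directions. Apoe passed as lower (-2.04, limma adjusted p = 0.0210) and Sparcl1 as higher (0.68, limma adjusted p = 0.0200). The part of these responses and of astrocyte content in the metallothionein values was not tested.

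In the wider zinc family of 29 genes, which holds all measured ZIP, ZnT and metallothionein genes and Mtf1, Slc39a12 was again the only one past the threshold over all 6 arrays. Differences were negative for 22 and positive for 7, with a median of -0.08. The 8 other ZnT genes had a median of -0.21, with 7 of 8 negative, and the 9 other ZIP genes one of -0.08, with 7 of 9 negative. In 6 of the 29 the groups did not overlap, against 17% of all genes, and in 5 of these the third ventricle was lower, against 9.24% of all genes. These 5 are Slc39a7, Slc30a5, Slc30a6, Slc30a7 and Mt4, none of them passed, and Mt4 is at background.

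Of these 5, the first 4 act in the secretory pathway. They were picked by their lack of overlap, so they are no test of that pathway. ZnT5 and ZnT6, encoded by Slc30a5 and Slc30a6, form a pair that loads zinc into the early secretory pathway, ZnT7, encoded by Slc30a7, does the same alone, and ZIP7, encoded by Slc39a7, releases zinc from the endoplasmic reticulum. Slc30a5 was 8.55, 7.96 and 8.37 in LV1 to LV3 and 7.83, 7.77 and 7.66 in TV1 to TV3, a difference of -0.54 (95% interval -0.89 to -0.19, limma adjusted p = 0.277). LV2 was the lateral array nearest to the third ventricle. Slc30a6 was 7.02, 6.79 and 7.02 against 6.62, 6.59 and 6.69, a difference of -0.31 (limma adjusted p = 0.320). Slc30a7 was 7.56, 7.44 and 7.35 against 7.13, 7.16 and 7.25, a difference of -0.27 (limma adjusted p = 0.340). In other family genes with differences of this size the groups overlapped. Among them are Slc39a13, also of the secretory pathway (-0.29), and Slc39a9 (-0.28, limma adjusted p = 0.413).

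Slc39a7 was 7.86, 7.87 and 7.97 in the lateral and 7.63, 7.62 and 7.51 in the third ventricle arrays. Here LV2 lay with LV1, and the difference of -0.31 (95% interval -0.52 to -0.10, limma adjusted p = 0.283) was -0.28 from LV2 alone. Slc30a7 also kept its size from LV2 alone, at -0.26, while Slc30a5 and Slc30a6 came to -0.20 and -0.16.

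Without LV2, 6 of the 29 genes passed, against 8.25% of all genes. Slc39a12 was higher, and Mt2, Slc30a5, Slc30a4, Slc30a6 and Slc39a13 were lower in the third ventricle cultures. Slc30a4, a ZnT of vesicles, differed by -0.57 (limma adjusted p = 0.0130) and Slc39a13, a ZIP of the secretory pathway, by -0.53 (limma adjusted p = 0.0287). Slc30a4 was 7.97, 7.30 and 7.87 in LV1 to LV3 and 7.25 to 7.41 in TV1 to TV3, so LV2 lay among the third ventricle arrays. In Slc39a13 LV2 lay below every TV array, at 5.72 against 5.75 to 6.06. Over all arrays these 2 genes differed by -0.36 and -0.29 (limma adjusted p = 0.429 and 0.583).

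**Figure D4:**
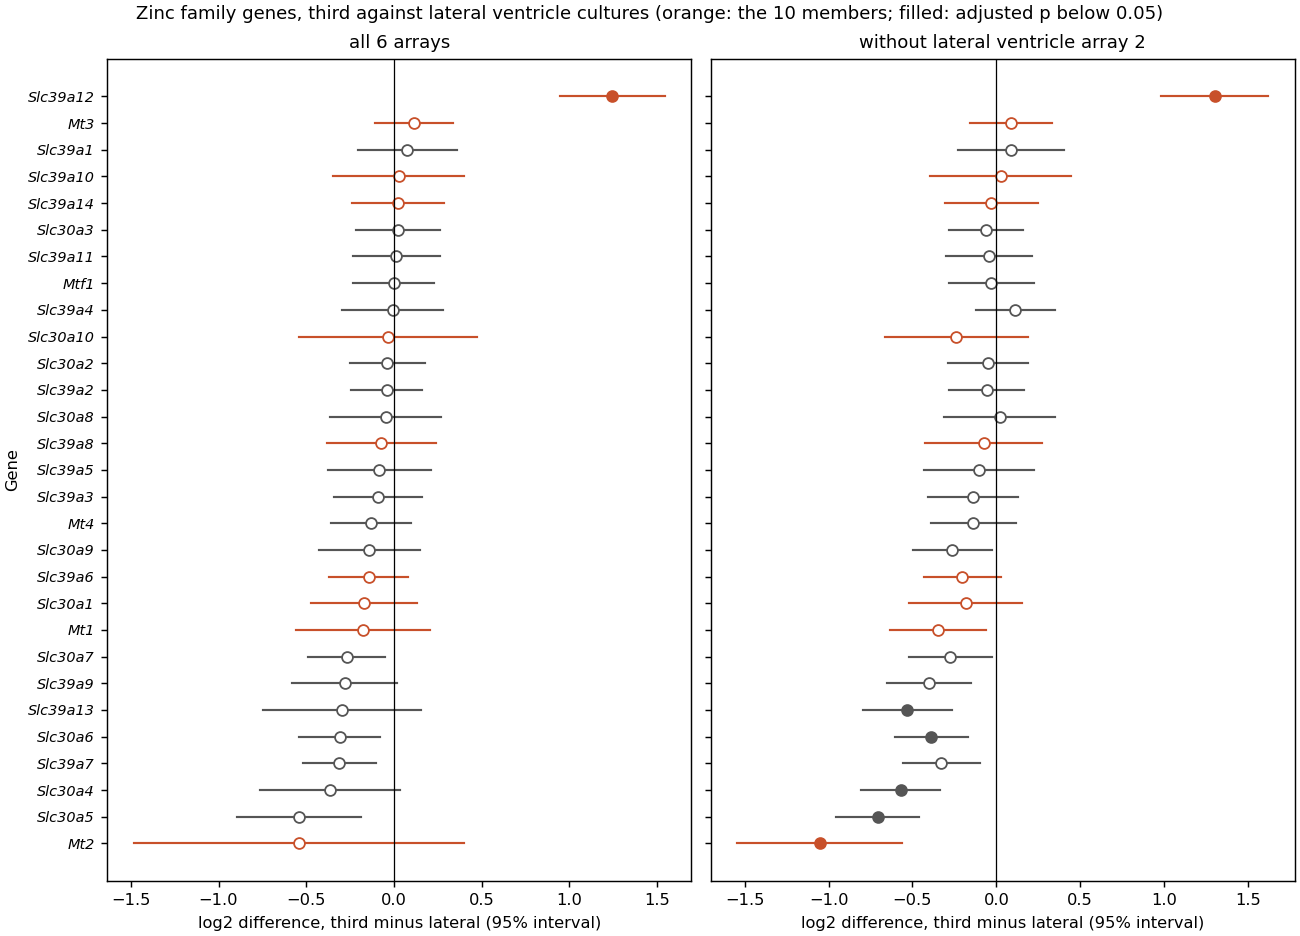
Log2 differences, the third ventricle minus the lateral, with 95% intervals (horizontal axes) for the 29 zinc family genes over all 6 arrays (left) and without LV2 (right), the 10 members in orange and genes past an adjusted p of 0.05 as filled points. Slc39a12 is filled in both panels, and Mt2, Slc30a4, Slc30a5, Slc30a6 and Slc39a13 are filled only on the right.

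Metallothioneins bind copper as well as zinc, and genes of copper handling were read in the same fit. Of 10, 0 passed with limma (1 at an unadjusted p below 0.05), 5 had a positive and 5 a negative difference, and their median was 0.0034. The largest difference was that of Cp, the copper-bearing ferroxidase ceruloplasmin, at 6.88, 5.98 and 7.34 in LV1 to LV3 and 8.16, 8.31 and 7.94 in TV1 to TV3. The groups did not overlap, and the difference of 1.40 did not pass over all arrays (limma adjusted p = 0.169) but did without LV2, at 1.03 (limma adjusted p = 0.00723). Slc31a1, the copper importer, was 8.88, 8.10 and 8.73 in the lateral arrays, lowest in LV2 as Mt1 and Mt2 were, and 8.30 to 8.56 in those of the third ventricle.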

How the data were processed

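Deposited were log2 values, 1 per probe set and array. Per the submitters' processing notes, the authors made them with RMA in Expression Console 1.1. This method corrects background and brings all arrays to one distribution, and it compresses differences of dim probe sets. Of 35556 probe sets, the platform annotation gave 1 symbol to 21789, several to 1621 and listed 12146 not at all. Where a gene had several single-symbol probe sets, that with the highest mean over the 6 arrays was taken, and dim genes were kept. Arrays of the third and the lateral ventricle were compared across all genes with limma 3.58.1 (lmFit, eBayes) in R 4.3.3, with Benjamini-Hochberg adjustment and a threshold of 0.05. An exact permutation of 3 against 3 arrays cannot pass 0.05, and precision is limited by having 3 arrays a group. The members and all gene lists were chosen with earlier results of these data known. Named are all members, other zinc family genes that pass in the fit of all arrays or without 1 array or have the 3 largest differences, passing genes of each other list or at most 2 others, and the 4 genes nearest to Slc39a12, Mt1 and Slc39a8, without predicted, Riken, olfactory, vomeronasal and histone genes. Slc30a7, Slc39a9, Slc31a1, Hmox1, Prdx1, Mt4, Mtf1, Tsc22d3, Gfap, Stmn2, Syt1, Map2, Nefl and Olig1 were named outside this rule, after their values were seen. So were Srxn1, Gsta4, Gclc and Gstm1. Promoter sequences are those of RefSeq, GRCm38.p6. The upstream stretches printed end where the annotated gene begins, and the sites of Mt1 and Slc30a1 lie inside the gene. The fit was tested on simulated data with 19938 genes, 200 of them changed.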

Additional observations from a re-analysis of the deposited data

How the results depend on the processing

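Slc39a12 kept its sign in all settings. It passed in those that changed the probe set, filter, normalization, prior, weights or block (limma adjusted p 0.0067 to 0.019). Since it has 1 probe set, the probe set and filter settings left its difference at 1.24 and could change little but the adjustment. All these settings also kept the 3 TV arrays. Without LV1 and LV3 together its difference was 1.13. Leaving out 1 array, Slc39a12 passed in 3 of 6 fits, with differences of 1.14 to 1.34 and limma adjusted p of 0.0012 to 0.1305. The number of genes called ran from 4 to 1644 when 1 array was left out and was 158 with array weights. Of the zinc family 0 to 6 genes, and of the members 0 to 2, then passed. Arrays were not treated as paired by replicate number. Deviations of same-numbered arrays correlated at 0.24, 0.111 and 0.068, and those of differently numbered arrays at -0.145 to 0.04. Each array thus correlated best with its own number, and 3 arrays a group cannot settle whether they are paired. With the replicate block 57 genes passed.

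Signs turned for members near 0. With array weights Slc39a14 came to -0.0093 and Slc39a10 to -0.0046. Leaving out 1 array, Slc39a8 ran from -0.22 to 0.0148, Slc39a14 from -0.0372 to 0.12, Slc39a10 from -0.12 to 0.18 and Slc30a10 from -0.24 to 0.21. Without LV1 and LV3, a fit chosen after seeing the data in which the lone lateral array is assumed to vary like the TV arrays, differences turned to 0.38 for Slc30a10, 0.17 for Mt1, 0.49 for Mt2, 0.0531 for Slc30a4 and 0.18 for Slc39a13. The causes were not tested. Slc39a8 and Slc39a14 have no value in the fit without the lowest 40% of genes, and RMA values near background limit what can be said of them.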
